A study of Sus scrofa with 37 samples.

Results

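Antigen presentation genes were followed in pig pancreas and in isolated pig islets. The set holds the transactivators NLRC5 and CIITA, the induced proteasome subunits PSMB8 and PSMB9, the peptide transporter subunits TAP1 and TAP2, the loading factor TAPBP, the class I light chain B2M and the class II invariant chain CD74. Members were the rows of both count tables whose Ensembl pig identifier maps to one of these 9 symbols. Of the 9, 8 had a row, among 25880 gene rows in all, and B2M was not analysed here. Their identifiers are ENSSSCG00000039751 (NLRC5), ENSSSCG00000007901 (CIITA), ENSSSCG00000026951 (PSMB8), ENSSSCG00000001463 (PSMB9), ENSSSCG00000025618 (TAP1), ENSSSCG00000025593 (TAP2), ENSSSCG00000001507 (TAPBP) and ENSSSCG00000033262 (CD74).

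MHC class I molecules show peptides from inside the cell to CD8 T cells, and most nucleated cells make them. The proteasome cuts proteins into peptides, the TAP1-TAP2 transporter moves these into the endoplasmic reticulum, and tapasin (TAPBP) holds empty class I molecules at the transporter until they are loaded. MHC class II molecules show peptides from outside the cell to CD4 T cells and are made mainly by macrophages, dendritic cells and B cells. CD74 occupies their groove until it is cut away. NLRC5 drives transcription of class I genes and CIITA that of class II genes, both through a complex on the MHC promoters, and interferon gamma raises both sets.

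RNA had been sequenced from pig samples labelled High or Low for islet density. How density had been measured is not stated in the labels. Pancreas libraries came from 50 mg of parenchyma of the duodenal lobe, sampled at organ retrieval, and islet libraries from purified islets after 7 days of free-floating culture. No treatment, genotype or strain is given for any group. Of the 17 pancreas libraries, 8 were High and 9 Low. Of the 18 islet libraries, 8 were High, 9 were Low and 1 had no density label. By the codes in the titles each library of a group is another animal, and 16 animals were counted in both tissues. The density label belongs to the sample. Of 15 animals labelled in both tissues, 11 had the same label in pancreas and islets and 4 had opposite labels. Tissue, isolation and culture cannot be told apart in this design. In such bulk samples, fewer cells of a type and less RNA per cell cannot be told apart either.

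Islet libraries held 3237653 to 6702589 gene counts and 10 of the pancreas libraries 1855075 to 3922006. The other 7 pancreas libraries, all labelled Low, held 265000 to 536014, and they are called the shallow libraries here. Acinar markers, genes of the enzyme-secreting cells, summed to 11630 to 26200 counts per 1000000 gene counts of the library (CPM) in the shallow libraries, to 91057 to 240372 in the other pancreas libraries and to 5.03 to 508 in islets. Pan-endocrine markers summed to 5824 to 28746 CPM in islets and to 149 to 5296 in pancreas, so each tissue carried its labelled markers. The islet library without a density label stood apart: 10 genes took 87.8% of its counts, against 21.8% to 52.3% in the other islet libraries. For 2 islet libraries, this one and islets High replicate 1, title and source name disagree on the tissue, and the title was followed.

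Islets carried much less NLRC5, CIITA, CD74 and PSMB9 transcript than pancreas and more TAPBP. PSMB8 was lower too, on 3 to 18 counts per islet library and 2 to 12 per pancreas library. Its call ended with the log2 library total as a covariate. Of the 8 members, 7 were lower and 1 was higher in the 18 islet than in the 17 pancreas libraries. Over all 12339 genes tested, 62.6% were called in this comparison, 31.5% lower and 31.1% higher (edgeR quasi-likelihood test, Benjamini-Hochberg adjusted p under 0.05). The members' median log2 fold change was -2.09, beside -0.01 over all genes tested. Without the shallow libraries 6 members were lower and 1 was higher, beside 4161 lower and 4303 higher of 12607 genes. With library totals in place of TMM factors 5 were lower and 1 was higher, beside 2195 and 5604 of 12339 genes. The members that left the count were TAP2 in the first case and TAP1 and TAP2 in the second.

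**Figure D1:**
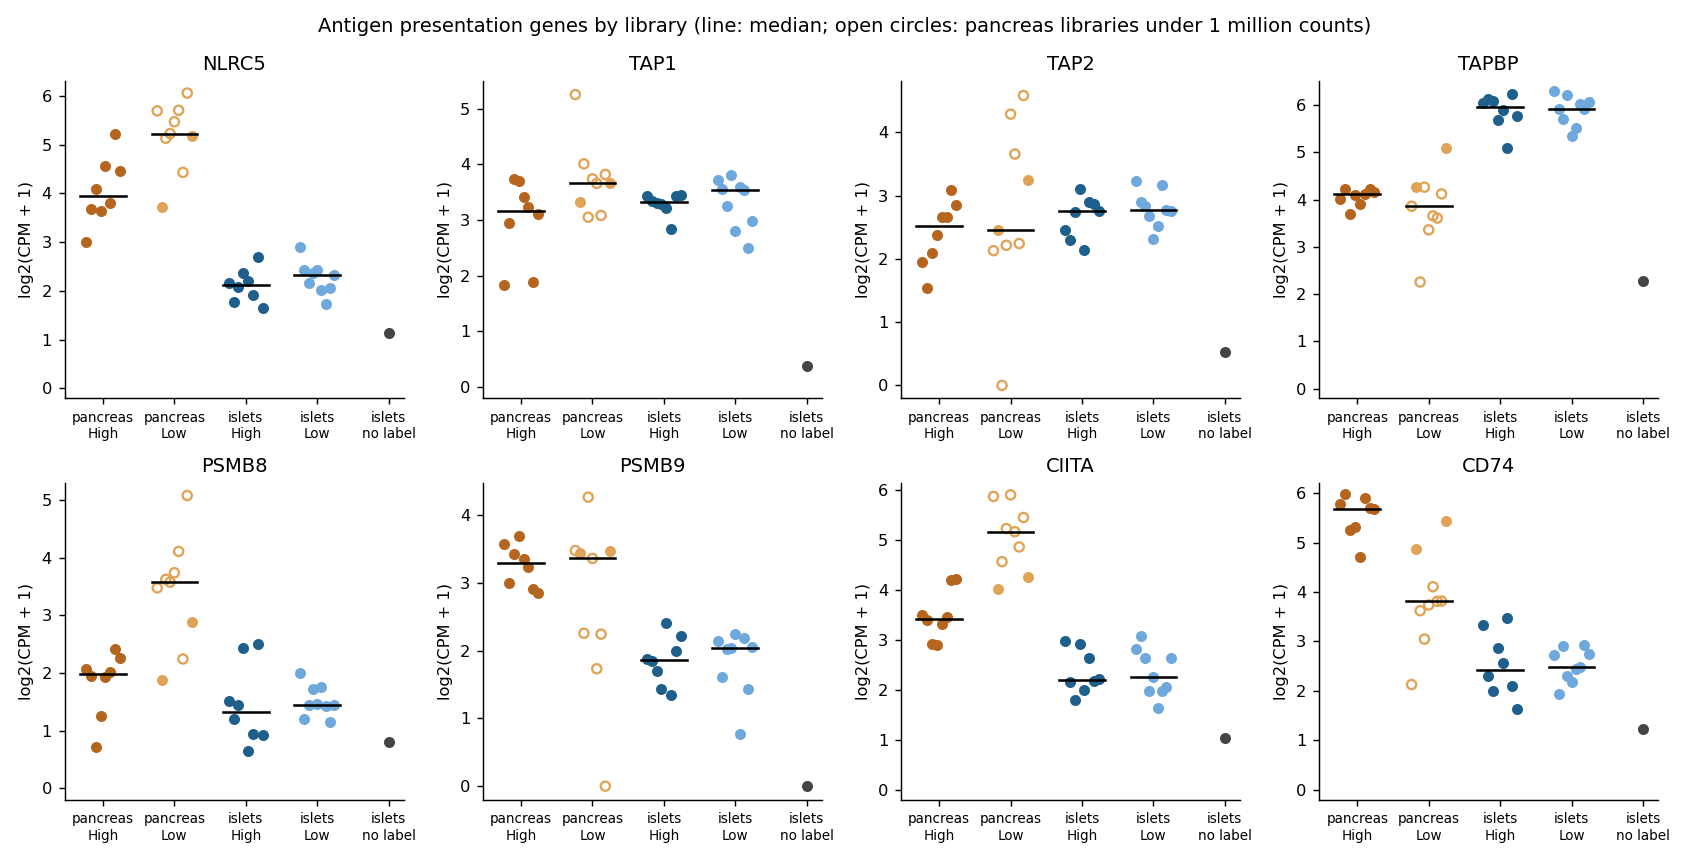
Level of each member in every library, as log2(CPM + 1), by tissue and density label, with the group median as a line and the 7 shallow pancreas libraries as open circles. NLRC5 lies between 1.19 and 6.43 CPM in islets and between 7.05 and 65.5 CPM in pancreas, while TAP1 and TAP2 overlap widely.

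NLRC5 levels in pancreas were 7.05 CPM in the lowest library, 22.4 at the median and 65.5 in the highest. In islets they were 1.19, 3.46 and 6.43 CPM. In CPM the groups did not overlap, which held for 2.54% of the genes tested and for no other member. After TMM scaling the gap nearly closed: the islet library without a density label had 9.672 scaled CPM and the lowest pancreas library 9.682. On the log2 scale the level was 9.79-fold lower in islets (-3.29, SE 0.26, adjusted p = 1.69e-14), and islets were lower in all 16 animals counted in both tissues. The value was -2.73 without the shallow libraries.

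CIITA levels in pancreas were 6.39 CPM in the lowest library, 17.6 at the median and 58.6 in the highest. The islet values were 1.04, 3.58 and 7.47 CPM. The ranges overlapped only at their edges, and islets were lower in 16 of 16 animals. Its log2 fold change was -2.74 (SE 0.30, adjusted p = 2.39e-10), and it was -1.90 without the shallow libraries, in which CIITA ran from 22.6 to 58.6 CPM on 6 to 19 counts. In RefSeq the CIITA gene overlaps DEXI, and as no strand setting is given, reads from the stretch they share cannot be told apart.

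The induced proteasome subunits were lower in islets, while a constitutive one was not. PSMB8 and PSMB9 replace constitutive subunits in the immunoproteasome, the form that interferon gamma induces. PSMB9 levels in pancreas were 0 CPM in the lowest library, 9.18 at the median and 18.2 in the highest. The islet values were 0, 2.83 and 4.33 CPM. The lowest islet value was the library without a density label, and the others started at 0.71 CPM. A count of 0 there allows up to 0.448 CPM, at 3 counts of the library total, and up to 9.83 CPM in the pancreas library at 0. The log2 fold change was -2.27 (SE 0.24, adjusted p = 4.98e-11), and islets were lower in 14 of 16 animals.

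PSMB8 was the least counted member, with 3 to 18 counts per islet library and 2 to 12 per pancreas library. Its levels in pancreas were 0.65 CPM in the lowest library, 3.79 at the median and 32.8 in the highest. In islets they were 0.565, 1.73 and 4.63 CPM. The groups overlapped, and only the lowest islet library lay below the pancreas range. PSMB8 differed by -1.91 on the log2 scale (SE 0.39, adjusted p = 5.06e-05). It was -1.07 without the shallow libraries (adjusted p = 0.0029) and -0.65 with the log2 library total as a covariate (adjusted p = 0.098), which ended the call.

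PSMB10, the third induced subunit and not a member, moved the same way. Its median was 109 CPM in pancreas (lowest 10.9, highest 196) and 9.98 CPM in islets (lowest 0.746, highest 16.5). Its log2 fold change was -3.73 (SE 0.29, adjusted p = 1.71e-14), and the islets were lower in 16 of 16 animals. In the 10 deeper pancreas libraries PSMB10 ran from 82.8 to 196 CPM, above every islet library, and the shallow ones lay below that range. Acinar markers were lower in the shallow libraries too, at 11630 to 26200 CPM against 91057 to 240372. The part of acinar cells in the PSMB10 values was not tested. Neighbouring genes were looked up for members only, so an overlap of PSMB10 with another gene was not checked. PSMB7, the constitutive subunit that PSMB10 replaces, had a median of 10.6 CPM in pancreas and 28.1 in islets, with a log2 fold change of 0.43 (adjusted p = 0.0112). PSMB7 was no longer called without the shallow libraries (0.28, adjusted p = 0.081). PSMB5 and PSMB6, the constitutive partners of PSMB8 and PSMB9, were not analysed here.

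Ratios of 2 genes within a library do not depend on how libraries are scaled, and 5 were compared between groups in 3 comparisons, with p-values adjusted over the 15. The log2 ratio of PSMB10 to PSMB7 averaged 2.27 ± 1.2 (SD, n = 17) in pancreas and -1.45 ± 0.31 (SD, n = 18) in islets. No islet library reached any pancreas library, and the difference was -3.72 (two-sided permutation test, adjusted p = 7.5e-05). The raw p behind that value, 2e-05, is the smallest that 100000 resamples can give. The ratios of PSMB9 and PSMB8 to PSMB7, which is the constitutive partner of neither, were not planned. That of PSMB9 was 2.88 log2 units lower in islets (permutation adjusted p = 7.5e-05). That of PSMB8 was 2.68 lower (permutation adjusted p = 0.00012). The differences were -4.56, -2.74 and -1.42 for PSMB10, PSMB9 and PSMB8 without the shallow libraries, and the adjusted p of all 3 stayed under 0.05. The permutation test leaves out that 16 animals gave both tissues. Exact sign flips over these animals gave -3.72, -2.94 and -2.725 in the same order. The sign-flip adjusted p was 7.63e-05, 7.63e-05 and 0.000305.

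**Figure D2:**
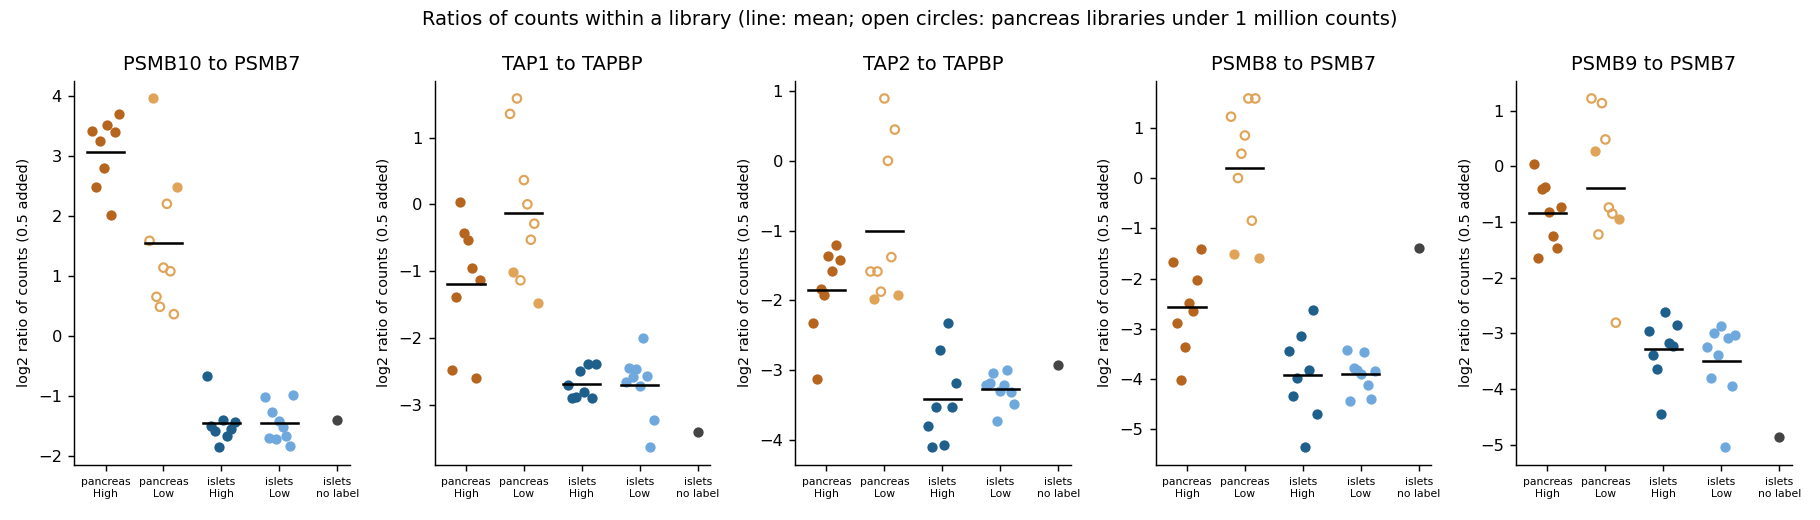
Log2 ratio of the counts of 2 genes in each library, with 0.5 added to each count, by tissue and density label; lines are group means and open circles the shallow pancreas libraries. PSMB10 to PSMB7 is above 0 in every pancreas library and below 0 in every islet library, with means of 2.27 and -1.45.

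TAP1 and TAP2 differed less between the tissues, and their calls rest on the scaling. TAP1 levels in pancreas were 2.56 CPM in the lowest library, 9.69 at the median and 37.1 in the highest. In islets they were 0.298, 9.02 and 13.1 CPM. TAP2 levels in pancreas were 0, 4.48 and 22.9 CPM, against 0.448, 5.74 and 8.36 CPM in islets. The medians in CPM thus lay close together, and for TAP2 the islet median was the higher. A count of 0 for TAP2 in the pancreas library of 265000 counts allows up to 11.3 CPM.

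After TMM scaling the log2 fold change of TAP1 was -0.73 (SE 0.22, adjusted p = 0.0043) and that of TAP2 -0.57 (SE 0.24, adjusted p = 0.0389). With library totals as the scaling they were -0.21 (adjusted p = 0.53) and -0.12 (adjusted p = 0.75). That scaling moves the median of all genes from -0.01 to 0.49, so both genes stayed below the median gene. The TAP1 call also ended without a low-count filter (adjusted p = 0.14) and with the depth covariate (adjusted p = 0.19). TAP2 was not called by DESeq2 (adjusted p = 0.060), nor without the shallow libraries (-0.27, adjusted p = 0.19), nor without the 2 islet libraries of doubtful source name (adjusted p = 0.054). Its call ended too in 6 of 35 fits that left out 1 library: pancreas Low replicates 5, 6 and 8, islets High replicates 2 and 5 and islets Low replicate 5, with adjusted p from 0.051 to 0.079. In CPM, islets were lower in 10 of 16 animals for TAP1 and in 7 of 16 for TAP2, and after TMM scaling in 14 and 13.

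TAPBP rose in islets. Its levels in pancreas were 3.77 CPM in the lowest library, 16.1 at the median and 32.9 in the highest. In islets they were 3.88, 59.3 and 78.1 CPM. Apart from the islet library without a density label, at 3.88 CPM, the islets started at 33.1 CPM and did not overlap the pancreas. After TMM scaling no library was an exception: the lowest islet library had 30.17 and the highest pancreas library 26.8 scaled CPM. The share of all genes without overlap on that scale was not counted. TAPBP was 2.37-fold higher in islets (log2 fold change 1.25, SE 0.13, adjusted p = 3.99e-11), and islets were higher in 15 of 16 animals. In RefSeq TAPBP overlaps ZBTB22, so reads from the stretch they share cannot be told apart.

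Transporter and tapasin transcripts stood in another proportion in islets than in pancreas. The log2 ratio of TAP1 to TAPBP averaged -0.63 ± 1.13 (SD, n = 17) in pancreas and -2.73 ± 0.39 (SD, n = 18) in islets. The ratio of TAP2 to TAPBP averaged -1.40 ± 0.996 and -3.31 ± 0.45. The differences of -2.11 and -1.91 had permutation adjusted p = 7.5e-05 each, and they were -1.54 and -1.44 without the shallow libraries. Exact sign flips over the 16 animals counted in both tissues gave -2.19 and -2.01 (sign-flip adjusted p = 7.63e-05 each). TAP2, PSMB8, TAP1 and PSMB9 adjoin one another in that order in RefSeq, without overlap.

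CD74 levels in pancreas were 3.38 CPM in the lowest library, 28.2 at the median and 61.8 in the highest. In islets they were 1.34, 4.54 and 10.2 CPM. The only pancreas libraries inside the islet range were shallow ones, in which CD74 had 1 to 7 counts. The 10 deeper pancreas libraries started at 25.0 CPM, above every islet library. The log2 fold change was -3.30 (SE 0.27, adjusted p = 5.04e-14), 9.84-fold lower in islets, and -3.64 without the shallow libraries.

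**Figure D3:**
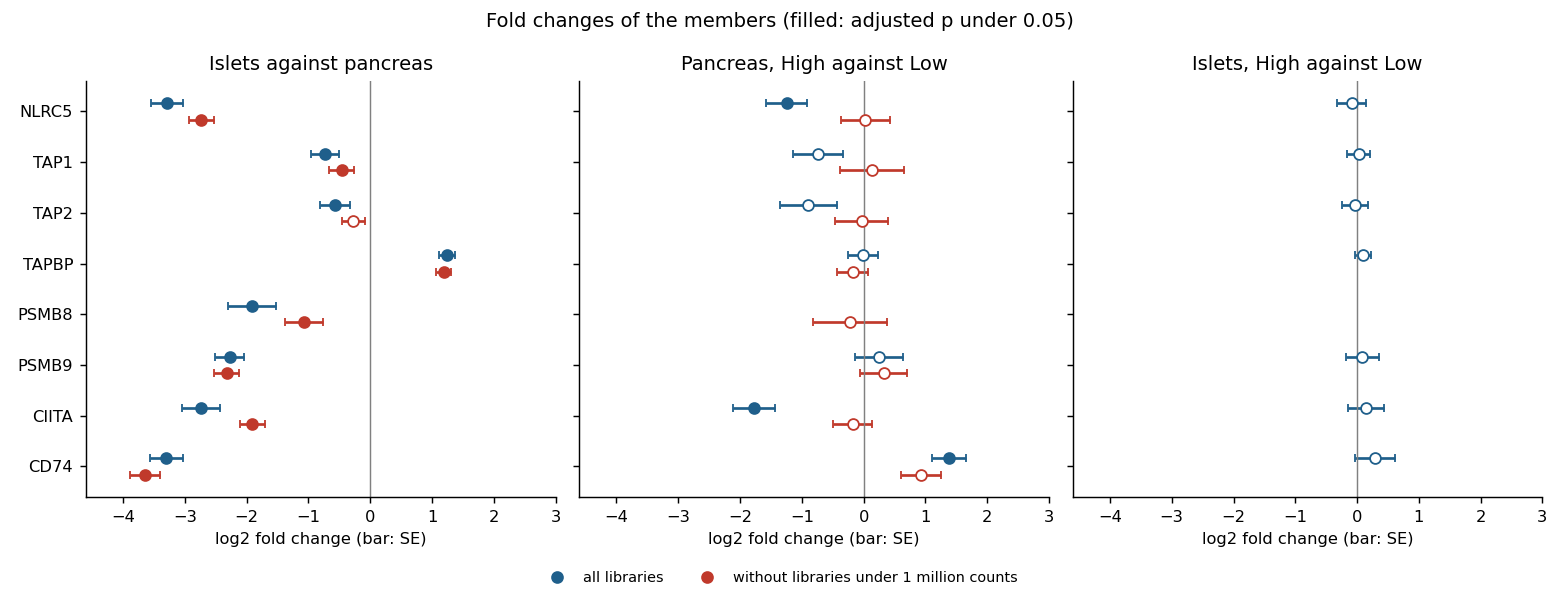
Log2 fold change of each member with its SE in the 3 comparisons, for all libraries (blue) and without the 7 shallow pancreas libraries (red); filled points have an adjusted p under 0.05. In the tissue comparison TAPBP alone is above 0, at 1.25, and in pancreas every red point is open.

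Myeloid cells also make CD74 and CIITA, and several of their markers were lower in islets as well. Of 6 myeloid markers tested, 4 were lower and none was higher in islets: CD163 (-5.92), a macrophage receptor, ITGAM (-3.45), CSF1R (-2.46) and PTPRC (-2.42), the pan-leukocyte antigen CD45. Without the shallow libraries these 4 were still called lower, and ITGB2, an integrin chain of leukocytes, was called higher in islets (1.16, adjusted p = 0.00305, against -0.32 with all libraries). The 11 myeloid markers with a row summed to 37.5 to 278 CPM in pancreas and to 9.85 to 55.4 CPM in islets. CD163 fell from a median of 28.6 CPM to 0.344 CPM and was at 0 in 4 of 18 islet libraries, though no marker was at 0 in all of them. None of the 10 lymphocyte markers with a row was counted highly enough to be tested, and they summed to 2.54 to 164 CPM in pancreas and 1.501 to 7.32 in islets. Of 6 dendritic cell markers 1 was tested, CD83 (log2 fold change 0.05, adjusted p = 0.92), and the 6 summed to 0.976 to 87.7 CPM in pancreas and 1.49 to 10.6 in islets. Without the shallow libraries CD83 was called higher in islets (0.90, adjusted p = 0.0263). The sum had a median of 4.32 CPM in the 10 deeper pancreas libraries, below the 6.82 of islets, while the myeloid sum had 72.4 against 28.5. Endothelial markers, also from cells that can make class II, were lower in 8 of 10, and in 4 of 10 with library totals as the scaling. The part of these cells in the members' differences was not tested.

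Within the islets the libraries with the most PSMB8 in CPM were islets High replicate 7 (4.63 CPM, 17 counts) and islets High replicate 4 (4.39 CPM, 18 counts). Replicate 4 also had the highest myeloid sum, 55.4 CPM, and replicate 7 the highest acinar sum, 508 CPM. CD74 was highest in islets High replicate 6 (10.2 CPM) and replicate 1 (9.03 CPM). Their myeloid sums were 21.6 and 40.1 CPM and their acinar sums 6.795 and 16.7 CPM. After TMM scaling the order changed: the library without a density label had the most PSMB8 (6.045 scaled CPM, on 5 counts), and for CD74 it came after replicate 6 (10.9 against 12.3 scaled CPM).

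Of 8 other genes of class II presentation tested, 4 were higher and 2 lower in islets, with a list median of 0.22. Over all genes tested 31.1% were higher and 31.5% lower, with a median of -0.01, the background for the following lists too. With library totals 5604 of 12339 genes were higher and 2195 lower, with a median of 0.49. SLA-DRA, the class II alpha chain, fell with CD74: its median was 24.5 CPM in pancreas (lowest 1.87, highest 45.9) and 2.15 in islets (lowest 0.287, highest 6.795). That was -3.90 on the log2 scale (SE 0.29, adjusted p = 6.6e-15). The cathepsin CTSL, a lysosomal protease, fell by 1.94 on the log2 scale. The lysosomal protease LGMN rose by 2.78, from a median of 16.7 to 206 CPM, and CTSB, another cathepsin, by 2.05. SLA-DMA, SLA-DMB, SLA-DOA, SLA-DOB and SLA-DQB1 had rows but did not pass the low-count filter. When the shallow libraries were left out, 4 of 9 tested genes were higher and 4 were lower, with a list median of -0.19.

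Class I loading and peptide trimming genes were higher in 6 and lower in 4 of 12, with a median of 0.23. The count was 7 higher and 1 lower with library totals, with a median of 0.79 beside 0.49 over all genes. It was 5 and 2 in the fit blocked by animal. The glycoprotein chaperones of the loading complex rose with TAPBP: PDIA3 by 2.01 (SE 0.35), CANX by 1.46 (SE 0.23) and CALR by 1.26 (SE 0.21) on the log2 scale. PDIA3 had a median of 140 CPM in pancreas and 800 in islets. Each of these chaperones also serves the folding of secretory proteins at large. ERAP2, an aminopeptidase that trims peptides in the endoplasmic reticulum, fell by 1.86. MR1, a class I-like molecule and the 1 heavy chain gene of that list with a row, fell by 1.89 (adjusted p = 8.73e-09). The classical SLA class I genes were not analysed here.

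Of 9 proteasome partners and activators tested, 7 were higher and 1, PSMB10, was lower, with a median of 0.48. These were 5 and 1 of 10 without the shallow libraries. PSMA1 and PSMA3, subunits of the outer ring, rose by 1.13 and 0.86, and PSME4, an activator cap, by 0.63.

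Of 11 factors that act on MHC promoters, 3 were higher, 3 were lower and 5 were not called, with a median of -0.14. RFXANK, a subunit of the RFX complex through which NLRC5 and CIITA act, had the largest change of the list. It had a median of 20.6 CPM in pancreas (lowest 3.09, highest 41.7) and 3.69 CPM in islets (lowest 0.597, highest 6.83), and it fell by 3.12 on the log2 scale (SE 0.19, adjusted p = 1.99e-17). NFYC, a subunit of the NF-Y complex, fell by 0.78, and the histone methyltransferase EZH2 by 0.58. The coactivator EP300 rose by 0.57. Leaving out the shallow libraries gave 7 lower and 3 higher of 11, and library totals gave 1 lower and 3 higher, with NFYC and EZH2 no longer called. Upper quartiles gave 4 lower and 1 higher, and the animal as a block 2 lower and 1 higher.

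Of 13 interferon gamma signalling genes tested, 8 were higher and 3 lower in islets, with a median of 0.62. JAK1, a kinase of the interferon receptors, had a median of 118 CPM in pancreas (lowest 21.8, highest 220.2) and 373 in islets (lowest 15.8, highest 520). It rose by 1.13 (SE 0.22, adjusted p = 1.77e-05), and by 0.71 without the shallow libraries. The feedback inhibitor SOCS3 rose by 1.27, while the receptor chain IFNGR1 fell by 1.96 (SE 0.23, adjusted p = 1.08e-09) and the transcription factor subunit NFKB1 by 0.72. The count was 8 higher and 3 lower of 13 without the shallow libraries too, but 6 and 4 with upper quartiles. It was 9 and 1 with library totals, which moved the median of all genes to 0.49. With the animal as a block it was 6 and 2. NFKB1 was not called with library totals (-0.15, adjusted p = 0.59).

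**Figure D4:**
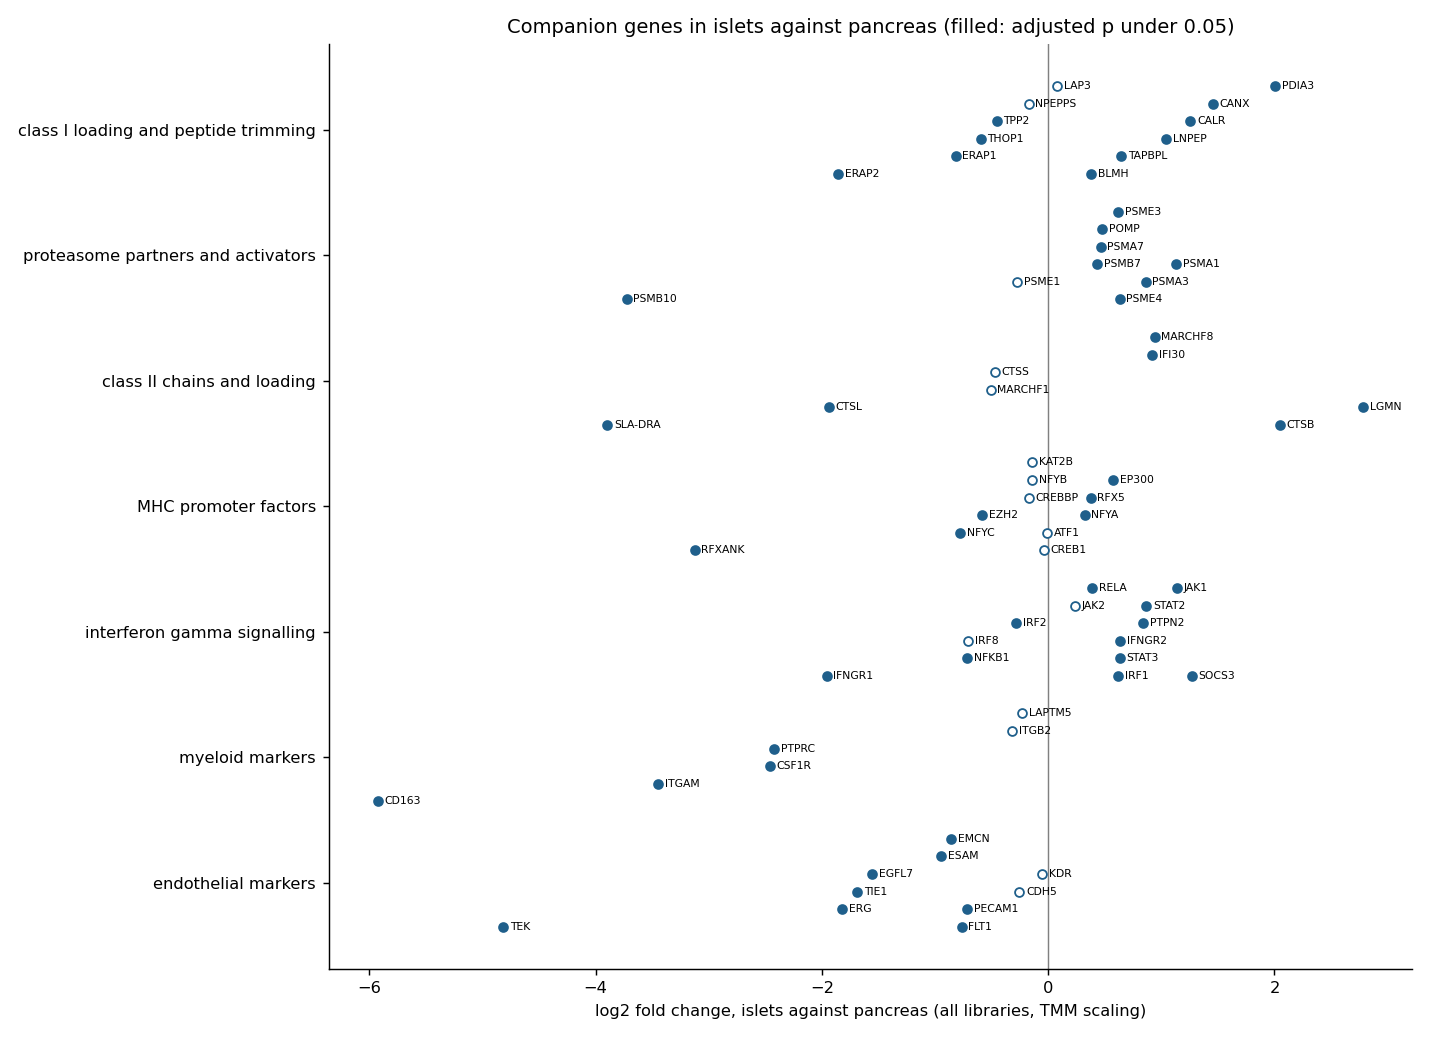
Log2 fold change in islets against pancreas of the genes around the members and of myeloid and endothelial markers, 1 row of points per list; filled points have an adjusted p under 0.05. PSMB10 (-3.73), SLA-DRA (-3.90) and RFXANK (-3.12) lie far to the left of their lists.

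Between pancreas labelled High and Low, 3 of 7 members tested differed: CD74 was higher in High, and NLRC5 and CIITA were lower. Of the 10634 genes tested, 40.3% were called, so the members' share was near the background. PSMB8 did not pass the low-count filter here. No member had groups that did not overlap, against 1.32% of the genes tested. CD74 levels in High were 25.0 CPM in the lowest library, 50.5 at the median and 61.8 in the highest, against 3.38, 13.1 and 42.4 CPM in Low. High exceeded Low by 1.39 on the log2 scale (SE 0.28, adjusted p = 0.000604). NLRC5 levels in High were 7.05, 14.4 and 36.1 CPM, against 12.1, 36.4 and 65.5 in Low, a difference of -1.24 on the log2 scale (SE 0.33, adjusted p = 0.00492). CIITA levels in High were 6.39, 9.71 and 17.6 CPM, against 15.2, 34.8 and 58.6 in Low, with -1.77 (SE 0.34, adjusted p = 0.000429). For CD74 the groups overlapped through the 2 Low libraries that were not shallow, for CIITA through 1 of these, and for NLRC5 through shallow ones as well.

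These pancreas differences stood or fell with the 7 shallow libraries. The 2 deeper Low libraries had 28.2 and 42.4 CPM of CD74, 12.1 and 35.0 of NLRC5, and 15.2 and 18.04 of CIITA. All were inside the High range but the last, which lay just above it. With these 2 against the 8 High libraries, edgeR called 0 of 13217 genes, 1222 of which had an unadjusted p under 0.05, and the log2 fold changes were 0.93 for CD74 (adjusted p = 0.39), 0.03 for NLRC5 (adjusted p = 0.99) and -0.18 for CIITA (adjusted p = 0.89). With 2 libraries in a group such a fit has little power. Of the shallow libraries, 6 have an animal code that begins with 14, and no High pancreas library has one. With that code as a covariate no member was called, and CD74 gave 1.12 (adjusted p = 0.085). In the pancreas, density cannot be told apart from library depth or from the other values that moved with the shallow libraries.

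Other values moved with the same libraries. Acinar markers summed to 11630 to 26200 CPM in the shallow and 91057 to 240372 in the deeper pancreas libraries. The 10 genes with the most counts took 53.3% to 71.7% of the counts in the shallow and 29.3% to 45.1% in the deeper ones. Lymphocyte markers summed to 57.8 to 164 CPM in the shallow and 2.54 to 26.4 in the deeper pancreas libraries, myeloid markers to 87.7 to 278 and 37.5 to 196, and dendritic cell markers to 20.5 to 87.7 and 0.976 to 18.3. The shallow libraries had 9 to 22 counts of NLRC5, 6 to 19 of CIITA and 1 to 7 of CD74. The part of these values in the members' differences was not tested.

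The remaining members showed no called difference in pancreas. The log2 fold changes were -0.74 for TAP1 (95% interval -1.57 to 0.09), -0.90 for TAP2 (-1.85 to 0.05), -0.01 for TAPBP (-0.52 to 0.50) and 0.25 for PSMB9 (-0.56 to 1.06). Among the companions PSMB10 was higher in High by 1.75 (adjusted p = 0.000859) and SLA-DRA by 1.02 (adjusted p = 0.0135). PSMB10 ran from 82.8 to 196 CPM in High, from 10.9 to 25.5 in the shallow Low libraries and was at 111 and 128 in the 2 deeper ones. The ratio of PSMB10 to PSMB7 was 1.52 log2 units higher in High (exact permutation test, adjusted p = 0.0134) and that of PSMB8 to PSMB7 2.76 lower (exact permutation test, adjusted p = 0.000823). These became -0.15 and -1.02 without the shallow libraries, and neither was called (adjusted p = 0.889 and 0.296 by the exact permutation test).

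Counts of called companions in pancreas were 6 higher and 1 lower of 12 for class I loading, 4 and 0 of 7 for the proteasome, 3 and 1 of 7 for class II, 5 and 0 of 11 for promoter factors and 1 and 0 of 12 for interferon gamma signalling, beside 40.3% of all genes tested. With library totals as the scaling they were 1 and 0 of 12, 1 and 0 of 7, 0 of 7, 0 of 11 and 0 of 12 in the same order, and SLA-DRA was not called (0.93, adjusted p = 0.085). In each list the count was 0 without the shallow libraries.

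Between islets labelled High and Low no member differed. Of 12070 genes tested, 0% were called by edgeR, and DESeq2 called 0 as well, while 257 and 297 genes had an unadjusted p under 0.05. NLRC5 levels in High were 2.11 CPM in the lowest library, 3.34 at the median and 5.45 in the highest, against 2.30, 4.02 and 6.43 in Low. The log2 fold change was -0.09, with a 95% interval of -0.59 to 0.40. CD74 had the largest value, 0.30, with an interval of -0.38 to 0.97, and its ranges were 2.11 to 10.2 CPM in High and 2.83 to 6.598 in Low. CIITA gave 0.15 (-0.45 to 0.74), TAP1 0.02 (-0.36 to 0.41), TAP2 -0.04 (-0.48 to 0.41), TAPBP 0.09 (-0.17 to 0.35) and PSMB9 0.09 (-0.47 to 0.64). PSMB8 did not pass the filter, at 0.565 to 4.63 CPM in High and 1.22 to 3.002 in Low. The groups overlapped for each of the 8 genes, and none of the 5 ratios differed (lowest adjusted p 0.713, exact permutation test). For TAPBP the interval leaves room for a change of 0.35 log2 units and for CD74 for 0.97.

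The density difference itself differed between the tissues for 3 of the 8 members. CIITA gave 1.56 (SE 0.42, adjusted p = 0.00392) and PSMB8 1.91 (SE 0.61, adjusted p = 0.0131), both in the direction of a higher High-to-Low ratio in islets. CD74 gave -1.27 (SE 0.42, adjusted p = 0.0169), in the opposite direction. With the animal as a block, PSMB8 gave 1.17 and was not called (limma, adjusted p = 0.10), while CIITA (1.32) and CD74 (-1.48) were. Of the 14337 genes tested, 39.9% were called, so the members' share was near the background. The contrast includes 4 animals with opposite labels in pancreas and islets. Only 61 genes were called without the shallow libraries, and the values were 0.24 for CIITA, 0.34 for PSMB8 and -0.74 for CD74, none of them called.

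**Figure D5:**
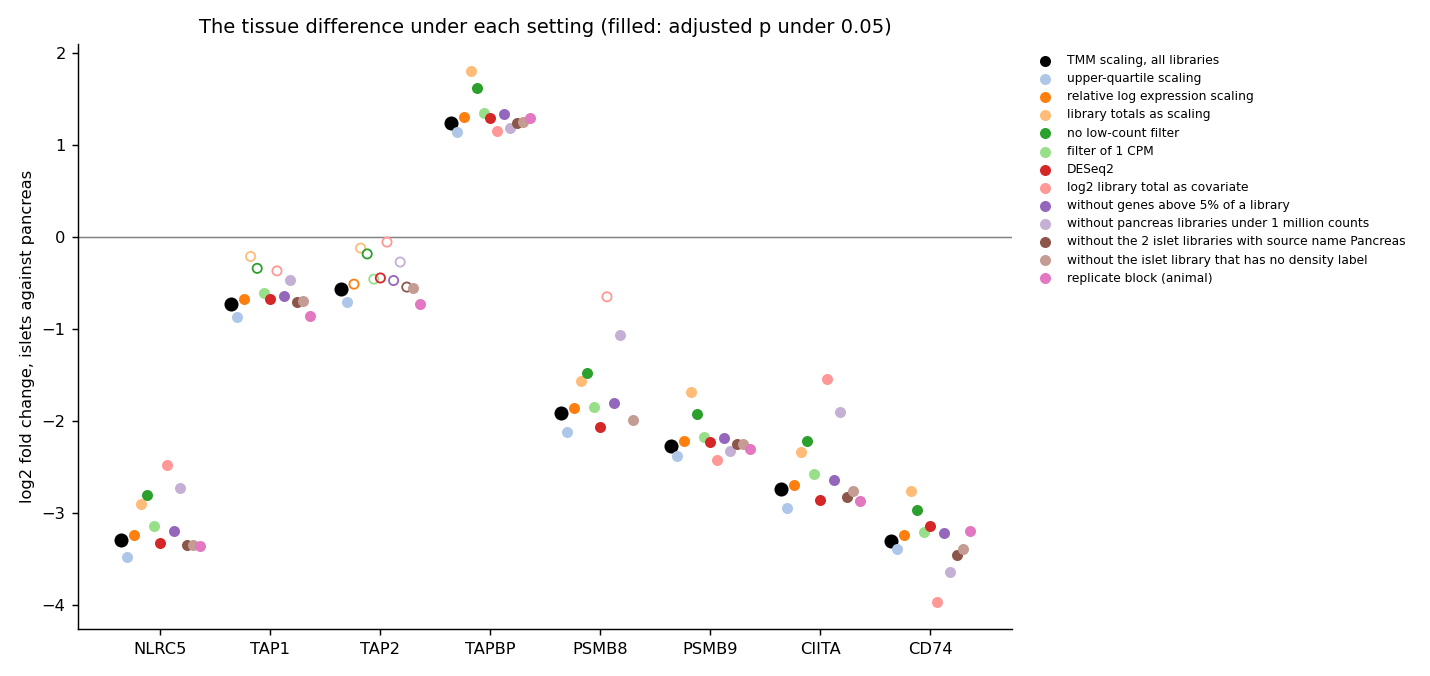
Log2 fold change of each member in islets against pancreas under each processing setting, 1 colour per setting; filled points have an adjusted p under 0.05. NLRC5, CIITA, PSMB9, CD74 and TAPBP are called under every setting shown, while TAP2 runs from -0.72 to -0.05 and loses its call in many.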

How the data were processed

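The authors deposited 1 table of raw read counts per tissue, with a row per Ensembl pig identifier. Subread, HISAT2 2.0.2, FastQC, edgeR and the build susScr3 appear in the submitters' processing notes, while the strand setting, counting options and annotation are not stated there. Without a strand setting, reads from a stretch that overlapping genes share cannot be told apart. Symbols were matched for 14857 of 25880 identifiers, and RefSeq genes of Sscrofa11.1 gave neighbouring genes only. Column names were tied to titles by the animal's code (35 columns for 37 samples), and 1 column that matched no sample was not used. Groups follow the title's tissue and the density label, and replicate numbers the listed order.

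Counts were fitted with edgeR 4.0.16 (filterByExpr, TMM, robust quasi-likelihood test, two-sided, Benjamini-Hochberg adjusted p of 0.05 over all genes tested) in R 4.3.3. The SE of an edgeR fold change was derived from the test, as the absolute log2 fold change over the square root of the F statistic. The 95% intervals rest on that SE. CPM values use the column total. Ratios are log2 of counts with 0.5 added, tested by permutation (scipy 1.17.1), exact where a group had fewer than 10 libraries. Exact sign flips over the 16 animals with both tissues were an alternative for the tissue comparison. DESeq2 1.42.0, other scalings and filters, and fits without shallow or single libraries were alternatives; limma 3.58.1 gave the blocked fit of the density differences. Scripts were tested on simulated data. Among 128 pairs of libraries within groups chi-square per degree of freedom was 3.18 or more, so each counted as 1 replicate. Limits for a count of 0 cover counting error only, while the 95% intervals of fold changes include the spread between libraries.

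The code in the titles pairs libraries by animal. The check of that pairing gave correlations of expression deviations between an animal's tissues from -0.41 to 0.23, over 0.1 in 5 of 16 animals, and the best match was the same animal in 4.

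The members, lists and tests were chosen with earlier results of these data known. The genes named are all members with a row, their ratio partners, and in each companion list up to 4 called genes by size of change; others named for a role were chosen after their values were seen. An item of the interferon gamma signalling list is not reported here.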

Additional observations from a re-analysis of the deposited data

Results flagged for a closer look

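Among 32 sets of member values by group, 4 had a highest or lowest library far from the rest of its group, and chance alone gives about 1 in 20. TAP1 was at 37.1 CPM in pancreas Low replicate 1, on 11 counts. TAP1 was at 6.18 CPM in islets High replicate 6, the lowest of its group. TAPBP was at 32.9 CPM in pancreas Low replicate 9, and PSMB8 at 32.8 CPM in pancreas Low replicate 8, on 10 counts. The difference between the High-to-Low change in islets and that in pancreas passed the test for CIITA (1.56, adjusted p = 0.00392), PSMB8 (1.91, adjusted p = 0.0131) and CD74 (-1.27, adjusted p = 0.0169; edgeR quasi-likelihood test). These 3 calls ended without the shallow pancreas libraries, and that of PSMB8 also with the animal as a block (1.17, limma, adjusted p = 0.10). Over all 14337 genes tested for this difference, 39.9% were called, so the members' share was near the background.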

How the results depend on the processing

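In islets against pancreas, the called direction of NLRC5, CIITA, TAPBP, PSMB9 and CD74 held in each alternative run. The number of genes called there was 15012 of 24780 without a low-count filter (60.6%), beside 7726 of 12339 in the main fit (62.6%). With 1 library left out it was 7487 to 7945 (61.3% to 64.8%). Scaling moved the split of the calls: 3834 higher and 3892 lower with TMM, 3351 and 4363 with upper quartiles, 5604 and 2195 with library totals. With the animal as a replicate block (16 animals), 6719 of 12138 genes were called and TAP1 gave -0.85 (adjusted p = 0.011) and TAP2 -0.72 (adjusted p = 0.036); PSMB8 was then not tested, and the block ended no member's call. In the same fit of the density differences PSMB8 gave 1.17 (adjusted p = 0.10) with the block.

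In pancreas High against Low, 4283 of 10634 genes were called in the main fit (40.3%). The number was 10836 of 24276 without a filter (44.6%) and 7587 of 16043 with a filter of 1 CPM (47.3%). In animals with 1 label in both tissues it was 2828 of 4949 (57.1%), and with library totals 2508 of 10634 (23.6%). It was 158 with the code covariate (1.49%), 0 without the shallow libraries and 0 with the depth covariate. With 1 library left out it ran from 3305 to 5044 (32.1% to 49%). The split was 1998 higher and 2285 lower with TMM and 1467 and 2772 with upper quartiles. Direction turned without the shallow libraries for NLRC5 (0.030) and TAP1 (0.13), and with the depth covariate for NLRC5 (0.29), CIITA (0.031), TAP1 (0.041) and TAP2 (0.10). TAPBP, near 0, gave 0.012 (relative log expression), 0.41 (no filter), 0.28 (1 CPM), 0.020 (no genes above 5% of a library) and -0.16 to 0.11 with 1 library left out. Without the shallow libraries the ratios gave -0.15 (PSMB10 to PSMB7), 0.060 (TAP1 to TAPBP), 0.11 (TAP2 to TAPBP) and -1.02 (PSMB8 to PSMB7).

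In islets High against Low, 0 genes were called with any library left out. Uncalled values changed sign for CIITA (-0.020 depth covariate, -0.0093 same-label animals), TAP1 (-0.064 same-label animals, -0.076 library totals), TAPBP (-0.033 code covariate, -0.019 library totals), PSMB9 (-0.0055 library totals) and CD74 (-0.016 same-label animals). With 1 library left out NLRC5 ran from -0.24 to 0.016, TAP1 from -0.063 to 0.098, TAP2 from -0.17 to 0.065, PSMB9 from -0.037 to 0.17 and CD74 from -0.029 to 0.43. With 1 added to each count, PSMB10 to PSMB7 gave 0.0011 and PSMB8 to PSMB7 0.016.

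For the difference of density differences, 8812 of 24775 genes were called without a filter (35.6%), beside 5718 of 14337 in the main fit (39.9%). The number was 61 without the shallow libraries (0.401%) and 13 with the depth covariate (0.0907%). Without the shallow libraries NLRC5 gave -0.19, TAP1 -0.20, TAP2 -0.079 and TAPBP 0.19. With the depth covariate NLRC5 gave -0.41, CIITA -0.026, TAP2 -0.27, TAPBP 0.43, PSMB8 -0.034 and PSMB9 0.042. TAP1 gave -0.087 without a filter, and TAPBP 0.15 (upper quartiles), 0.040 (relative log expression), 0.077 (DESeq2) and 0.088 (library totals). Leave-one-out was not run for it. The cause of these changes was not tested. Planned ratios with B2M, PSMB5 and PSMB6 could not be made. Counts of 1 to 7 for CD74 and 2 to 10 for PSMB8 per shallow library limit what these libraries can show.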

Other observations

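Over the 18 islet libraries, the 5 genes whose log2(CPM + 1) followed NLRC5 most closely, among 10234 genes with a mean of at least 5 CPM, were CTSH (Pearson r 0.84), MMP9 (0.82), RGS4 (0.81), SLC18B1 (0.81) and LCP1 (0.80). Over the 17 libraries with a density label CTSH, SLC18B1 and MMP9 stayed among the first 5, at 0.77, 0.72 and 0.69. For PSMB9 the 5 genes were NOL10 (0.93), BCL9L (0.90), TMEM94 (0.89), KCNH2 (0.88) and DCTN1 (0.88), of which NOL10 (0.83) and BCL9L (0.81) remained over 17 libraries. Among the members, PSMB8 followed NLRC5 with r 0.65 over 18 and 0.61 over 17 libraries, while CD74 gave 0.35 and 0.03. These values describe libraries that share scaling and depth, with no test.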
